A study of Mus musculus with 20 samples.

Results

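RNA of whole adrenal glands was compared between 4 libraries of males labelled Bmal1 KO and 6 libraries of control males, 10 of the 20 libraries of the series; the members were taken by the group and sex in the library titles, and every change is KO minus control. The controls carry the genotype label SCC::Cre_CTRL and the other males SCC::Cre_BMAL1 KO, so the Cre driver is shared by both groups. SCC is the short name of the cholesterol side-chain cleavage enzyme, encoded by Cyp11a1 and found in the cells of the cortex that make steroids. Whole glands also hold the capsule, the catecholamine-producing medulla, vessels and immune cells. Control males were 2.9 to 4.7 months old and KO males 2.9 to 3.7 months old, and controls 1 and 2 (4.7 and 4.6 months) were older than any KO male. The exons removed, the time of day of collection, litters and whether each library is a separate animal are facts not given in the sources used here, so the p-values cover only the spread among these libraries, some of which may be technical. The other 10 libraries, 5 control females of 1.5 to 3.4 months and 5 Bmal1 KO females of 2.4 to 3.4 months, served for 1 comparison between the sexes, and 2 of the control females (1.5 months) were the youngest of the 20 libraries.

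BMAL1, encoded by Arntl, pairs with CLOCK or NPAS2 and binds E-box motifs to switch on the Per, Cry, Nr1d and Dbp genes, whose products then repress the loop or carry its timing to other genes. REV-ERB proteins, encoded by Nr1d1 and Nr1d2, repress genes such as Cry1, Npas2 and Clock. In the adrenal cortex the clock is known for gating the daily rhythm of corticosterone output, in which STAR delivers cholesterol to the side-chain cleavage enzyme in mitochondria.

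Arntl (chr7:113207465-113314126, plus strand, GRCm38) held 365 to 1092 (median 638) normalised reads in the controls, given here and below as lowest to highest with the median, and 995, 965, 841 and 893 in KO males 1 to 4. The groups overlapped, since control male 6 alone read as high as the KO males, and the change of 0.55 ± 0.20 (log2, SE) did not pass the test (adjusted p = 0.241). A sum over the whole gene says nothing about deleted exons, so directions rest on the labels. Cry1 separated the groups, at 122 to 213 (median 142) in controls and 1396, 1423, 1140 and 1195 in KO males. Library size was 13421985 to 26742820 reads, lowest in control male 4, which also lay farthest out on the first principal component of the males (-57.41, against -25.54 to 40.86 in the other 9) and held 202 normalised reads of Xist against 8.3 to 59.4 in the other males. Control male 6 had the highest mitochondrial share (12.4%) of a range of 7.94% to 12.4%. Without control male 4 there were 289 calls and without control male 6 there were 484.

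Of 26612 tested genes, 354 (1.33%) were called, 203 higher (0.763%) and 151 lower (0.567%) in KO males, by limma at an adjusted p under 0.05. Most changes were small: 58 genes rose and 55 fell at least 2-fold on the log2(value + 1) scale, and 241 called genes moved by less. For 290 of the calls no KO library overlapped the controls, against 817 (3.07%) of all tested genes, and the median change over all tested genes was 0.000. An unadjusted p under 0.05 was reached by 2899 of the 26612 tested genes, to be set beside such counts for the lists below. These lists and families were chosen with earlier results of these data known, so their shares of calls are no independent support. The calls were mostly of protein-coding genes (321 of 354), and 40 had no name beyond an identifier, a clone or a predicted gene. Leaving out 1 male library at a time kept 151 of the 354 calls in all 10 fits, 90 higher and 61 lower, and 203 were lost at least once. The count itself ranged from 217 without KO male 4, 229 without control male 2 and 241 without control male 3 to 484 without control male 6. It was 219 when the male libraries were fitted alone, 200 without the oldest controls 1 and 2, and 732 with DESeq2. Where a gene named below lost its call without 1 of the male libraries or under another setting of the fit, that is given in the same paragraph, with the highest adjusted p reached (C1 to C6 stand for the control males and K1 to K4 for the KO males). The other settings were a fit of males alone, one without the oldest controls, age as a covariate, no filter on low values, TMM scaling, a pseudocount of 0.1 and the tools limma-voom, edgeR and DESeq2 on recovered reads. Losses in a fit with the replicate number as a block are not given gene by gene. In that fit 42 of the 161 genes followed over the settings were no longer called. Reads of exon bases that 2 genes share cannot be assigned, because the strand of counting is not given, and 112 of the 354 called genes share exon bases with another gene. Only some of these overlaps are given below.

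**Figure D1:**
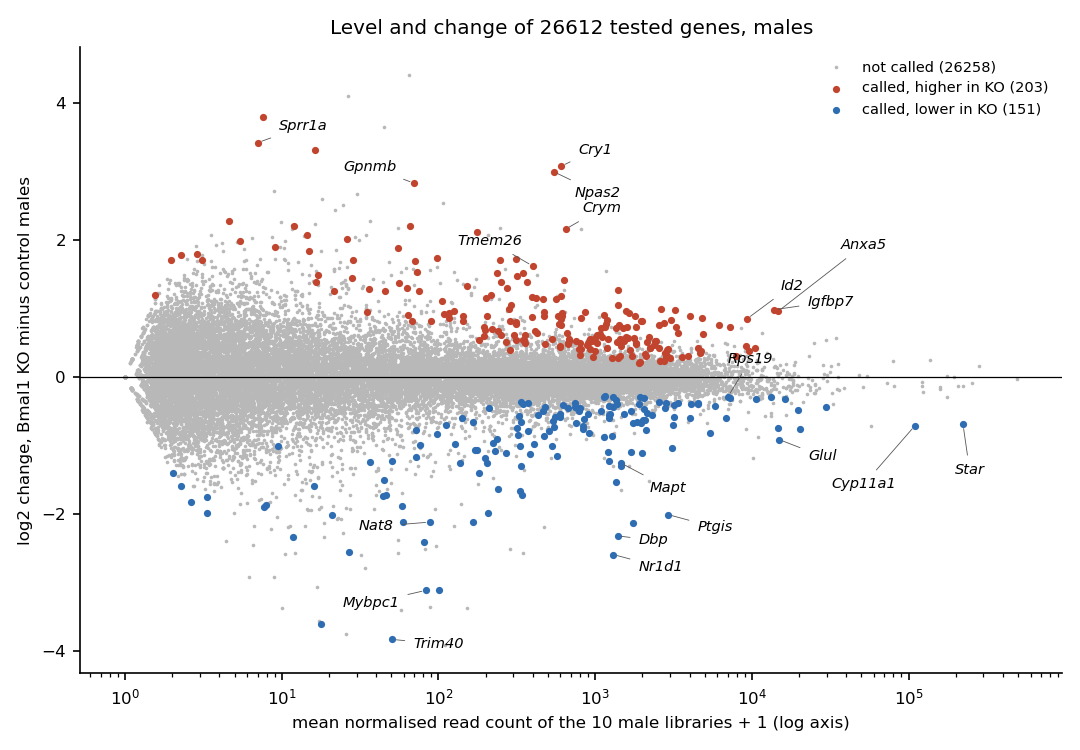
Each point is a gene: the x axis is the mean normalised read count of the 10 male libraries plus 1 on a log axis, and the y axis is the log2 change, KO minus control; red and blue mark the 203 higher and 151 lower calls. Called genes span low levels (Sprr1a, Trim40) to abundant transcripts of the cortex (Star, Cyp11a1). Star and Cyp11a1, the most abundant of the named calls, were both lower.

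Clock genes were among the largest changes. Among tested genes of the core loop Cry1, Npas2, Clock, Per2 and Cry2 were called higher and Nr1d1, Nr1d2, Per3 and Bhlhe41 lower. Of 12 genes listed as output, Leo1 and Lonrf3 were called higher and Dbp and Tspan4 lower (33.3%, beside 1.33% of all tested genes). This list was chosen with earlier results of these data known. Npas2, the alternative partner of BMAL1, read 94.99 to 158 (median 157) in controls and 1198, 1251, 1047 and 1076 in KO males, a rise of 3.001 ± 0.16 (adjusted p = 1.96e-10). Nr1d1, which encodes REV-ERB alpha, read 1091 to 2381 (median 2148) in controls and 266, 243, 332 and 450.1 in KO males, a change of -2.59 ± 0.26 (adjusted p = 8.41e-06). Nr1d2 followed at -2.12 ± 0.19, and the output factor Dbp changed by -2.31 ± 0.16. For Cry1 and these 4 genes the KO and control males did not overlap, as was the case for 290 of all 354 calls. Clock rose by 0.42 ± 0.07 and Leo1, a subunit of the PAF1 elongation complex, by 0.65 ± 0.09, while Bhlhe41, a repressor acting at E-boxes, changed by -1.63 ± 0.24. The repressors Per2 (0.96 ± 0.23), Per3 (-1.01 ± 0.22) and Cry2 (0.42 ± 0.09) moved in different directions. Per2 (without any but C4 and C6, 0.161), Per3 (without C2, C3, K1 or K2, 0.0942), Cry2 (without C3, K1 or K3, 0.0816), Lonrf3 (without K2, 0.0776) and Tspan4 (without any but C6, 0.137) lost the call with 1 library left out. Per2, Per3 and Lonrf3 were not called in males alone, Per2, Per3, Cry2, Lonrf3 and Tspan4 without the oldest controls, Per2 with age, and Per2 and Tspan4 with no filter (adjusted p from 0.0523 to 0.226).

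Start regions of 5 genes that moved are shown because each holds an E-box (CACGTG) or its variant E-prime-box (CACGTT, which reads AACGTG on the other strand), in capitals. They run 250 bases before to 50 after the start, 5′ to 3′ on the gene's strand, from RefSeq on GRCm38.p6. Cry1 lies at chr10:85185005-85185304 (minus), Lrrc58, a leucine-rich repeat protein, at chr16:37868150-37868449 (plus) and Nedd9, a scaffold of focal adhesions, at chr13:41358952-41359251 (minus), and all 3 rose, Lrrc58 by 0.65 ± 0.07 and Nedd9 by 0.90 ± 0.14. Bhlhe41 lies at chr6:145865371-145865670 (minus) and Oxtr, the oxytocin receptor, at chr6:112489776-112490075 (minus), and both fell. They were chosen from the called genes with a match after their values were seen.
Cry1: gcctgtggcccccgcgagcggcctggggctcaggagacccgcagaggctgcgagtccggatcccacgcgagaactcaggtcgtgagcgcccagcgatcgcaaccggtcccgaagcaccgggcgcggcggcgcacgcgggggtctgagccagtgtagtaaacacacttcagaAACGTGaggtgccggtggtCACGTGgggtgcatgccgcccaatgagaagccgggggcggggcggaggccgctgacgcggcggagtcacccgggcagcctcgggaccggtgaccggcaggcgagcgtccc
Lrrc58: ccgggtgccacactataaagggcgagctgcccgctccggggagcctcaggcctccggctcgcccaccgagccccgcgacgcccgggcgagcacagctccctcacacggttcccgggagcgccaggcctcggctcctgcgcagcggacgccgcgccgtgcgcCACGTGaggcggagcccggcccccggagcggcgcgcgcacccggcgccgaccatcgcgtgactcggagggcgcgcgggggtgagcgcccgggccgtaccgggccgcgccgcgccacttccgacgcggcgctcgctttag
Nedd9: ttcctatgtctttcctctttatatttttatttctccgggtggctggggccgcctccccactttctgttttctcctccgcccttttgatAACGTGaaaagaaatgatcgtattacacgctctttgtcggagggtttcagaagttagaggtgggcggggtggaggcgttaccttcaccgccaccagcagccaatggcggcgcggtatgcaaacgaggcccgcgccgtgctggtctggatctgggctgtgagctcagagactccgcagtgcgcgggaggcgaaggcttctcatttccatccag
Bhlhe41: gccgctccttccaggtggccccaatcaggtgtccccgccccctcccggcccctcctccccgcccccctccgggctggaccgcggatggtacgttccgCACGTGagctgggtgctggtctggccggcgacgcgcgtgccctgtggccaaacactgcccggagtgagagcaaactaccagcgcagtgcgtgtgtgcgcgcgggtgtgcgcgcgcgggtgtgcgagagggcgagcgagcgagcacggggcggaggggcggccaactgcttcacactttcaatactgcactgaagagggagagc
Oxtr: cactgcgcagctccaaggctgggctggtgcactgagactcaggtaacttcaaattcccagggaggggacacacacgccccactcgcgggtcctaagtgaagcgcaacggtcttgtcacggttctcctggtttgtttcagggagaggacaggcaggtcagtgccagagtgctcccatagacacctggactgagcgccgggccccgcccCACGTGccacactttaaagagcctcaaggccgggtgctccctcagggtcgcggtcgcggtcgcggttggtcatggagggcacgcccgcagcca
Cry1 carries the E-prime-box from position -79 and the E-box from -60 relative to the start, Lrrc58 an E-box from -89, Nedd9 an E-prime-box from -162, Bhlhe41 an E-box from -153 and Oxtr an E-box from -43. RefSeq windows matched 132 of the higher and 93 of the lower genes, with 175 and 126 windows. On either strand CACGTG stood in 11.1% of the windows of lower genes, 6.86% of those of higher genes and 8.8% of all 17606 windows. CACGTT stood in 11.4% of the windows of higher genes, 3.97% of those of lower genes and 5% of all. The D-box (TTATGTAA or TTACGTAA), the REV-ERB core TAGGTCA and the cAMP element TGACGTCA stood in 1.14%, 1.71% and 1.71% of the windows of higher genes, 1.59%, 1.59% and 0.794% of those of lower genes and 0.824%, 2.12% and 2.6% of all. These shares describe letters in a short window and were not tested.

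Beyond the clock, Crym and Thra, whose products bind thyroid hormone, were called higher. Crym (chr7:120186380-120202111, minus strand), which encodes the cytosolic thyroid hormone binding protein mu-crystallin, held 197 to 353 (median 275) in controls and 968, 1797, 873 and 1236 in KO males, a rise of 2.16 ± 0.23 (adjusted p = 1.66e-05). KO male 2 was the highest, and the lowest KO male stood above the highest control. The receptor gene Thra rose by 0.59 ± 0.10, at 1578 to 2067 (median 1874) in controls and 2861, 3059, 2467 and 2681 in KO males. Thra shares 263 exon bases with Nr1d1 on the opposite strand, and since the strand of counting is not given, reads there cannot be assigned to either gene.

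Steroidogenesis moved in few genes, and at its first steps. Of 14 tested genes of corticosteroid synthesis, 2 were called lower (14.3%) and 0 higher. Star, which carries cholesterol to the inner mitochondrial membrane, read 226155 to 386386 (median 233606) in controls and 196480, 129731, 178830 and 143710 in KO males, a change of -0.69 ± 0.15 (adjusted p = 0.0238). Control male 6, at 386386, stood far above the other controls, and no KO male reached the lowest control. Cyp11a1, whose regulatory region drives the Cre, read 95008 to 147133 (median 135697) against 95711, 66575, 84953 and 70901, a change of -0.71 ± 0.17, and KO male 1 lay within the control range. Akr1cl, an abundant aldo-keto reductase of the adrenal, fell by 0.44 ± 0.09, at 27650 to 38874 (median 32835) in controls and 25482, 24953, 21451 and 25499 in KO males. The pseudogene Cyp21a2-ps, a near copy of the 21-hydroxylase gene with which it may share reads, changed by -0.60 ± 0.14. Star (without K2 or K4, 0.105), Cyp11a1 (without any but C5, C6 and K1, 0.125), Akr1cl (without K3, 0.0631) and Cyp21a2-ps (without C2, C3, C6, K1, K2 or K4, 0.152) lost the call with 1 library left out. Star, Akr1cl and Cyp21a2-ps were not called in males alone, and Cyp11a1, Akr1cl and Cyp21a2-ps without the oldest controls (adjusted p from 0.064 to 0.154). In bulk tissue fewer cells of a type and less RNA per cell cannot be told apart. The 15 transcription factors of cortex identity had 0 calls by limma, with 3 at an unadjusted p under 0.05, and 0 by edgeR, DESeq2 or any left-out fit.

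Cholesterol synthesis genes stood slightly lower as a list, with 21 of 25 below 0 and a median of -0.15, but 0 were called (1 at an unadjusted p under 0.05; 0 by edgeR and DESeq2). Vldlr, a lipoprotein receptor, was the 1 call of 22 genes of cholesterol uptake, storage and export, at 0.49 ± 0.10, and Abcg4, a sterol exporter, rose by 0.41 ± 0.10. Of 26 triglyceride and lipid droplet genes 2 were called lower: Lpin1, a phosphatidate phosphatase on the way to triglyceride, at 764 to 1285 (median 1067) in controls and 686, 755, 711 and 668 in KO males, a change of -0.54 ± 0.11, and Mgll, which splits monoacylglycerol and the endocannabinoid 2-AG, with a change of -0.62 ± 0.15. Acsm5, a medium-chain acyl-CoA synthetase, changed by -1.23 ± 0.28 and Slc22a5, the carnitine importer, by -0.39 ± 0.08. Abhd4, a lipase acting on N-acyl phospholipids, was lower at a high level, with a mean of 22178 ± 1001 (SD, n = 6) in controls and 15873 ± 261 (n = 4) in KO males, a change of -0.48 ± 0.08; it was named after its values were seen. Fatty acid oxidation, fatty acid synthesis, sphingolipid and retinoid lists (27, 20, 28 and 27 tested) had 0 calls by limma and 6, 6, 5 and 2 members at an unadjusted p under 0.05; edgeR called 1 sphingolipid gene, and DESeq2 called 0, 2, 2 and 0. Vldlr (without K2, 0.0641), Abcg4 (without any but C4, C6 and K2, 0.183) and Lpin1 (without K1 or K4, 0.0688) lost the call with 1 library left out. Mgll (without any but C6, K2 and K3, 0.199), Acsm5 (without C1, C2, C3, C5, K3 or K4, 0.131) and Slc22a5 (without K1, K2 or K4, 0.0608) did so too. Abcg4, Lpin1, Mgll, Acsm5 and Slc22a5 were not called in males alone, Abcg4, Lpin1, Mgll and Acsm5 without the oldest controls, Abcg4, Mgll and Acsm5 with age, Mgll with no filter, Mgll with a pseudocount of 0.1, and Mgll by edgeR (adjusted p from 0.0523 to 0.213).

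Ptgis, prostacyclin synthase, was the 1 called gene of 25 in prostanoid synthesis and breakdown. It held 2621 to 5904 (median 4031) in controls and 752, 2170, 623 and 964 in KO males (chr2:167191805-167240604, minus strand), a change of -2.004 ± 0.28 on the log2 scale (adjusted p = 0.000345). KO male 2 was the highest of the KO males and still lay under every control. Ptgis overlaps exons of 1110018N20Rik over 156 bases on the plus strand.

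Several acetyltransferases of the Nat8 and Cml cluster fell. Of 7 tested members, 4 (57.1%) were called lower and 0 higher, beside 1.33% of all tested genes called, and the median was -0.99. The family was chosen with earlier results of these data known. NAT8 acetylates cysteine conjugates in the last step of mercapturic acid formation. Nat8 (chr6:85830388-85832082, minus strand) read 92.8 to 156 (median 129.9) in controls and 27.9, 25.96, 29.3 and 29.1 in KO males, a change of -2.11 ± 0.21 (adjusted p = 5.65e-06). Cml5 changed by -2.41 ± 0.36, Cml3 by -1.88 ± 0.31 and Cml1 by -0.64 ± 0.15. These genes are near copies, and how reads were split between them is not given, so their separate values are uncertain. Cml1 also shares 478 of its 1345 exon bases with Tprkb on the opposite strand. The summed level of the 7 members was 755 to 1164 in controls and 467 to 566 in KO males. Cml1 (without any but C6, 0.153) lost the call with 1 library left out. Cml1 was not called without the oldest controls, Cml1 with age, Cml1 with no filter, and Cml1 by limma-voom (adjusted p from 0.05 to 0.172).

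Other enzymes that attach groups to drugs and metabolites moved in part. Of 25 glutathione transferases, Gsta3, Gstt3 and Mgst2 were called lower and Gstm7 higher, while of 17 glucuronosyl- and sulfotransferases Ugt1a6a and Ugt3a2 were called lower. Gstt3 read 209.8 to 739 (median 420.4) in controls and 212, 146, 136 and 195 in KO males, a change of -1.30 ± 0.27. Gsta3 changed by -1.40 ± 0.32, Mgst2 by -1.16 ± 0.29, Gstm7 by 0.42 ± 0.10, Ugt1a6a by -1.99 ± 0.47 and Ugt3a2 by -1.86 ± 0.45. Ugt1a6a shares exons with other genes of the Ugt1a locus, and its value is uncertain. Gstt3 (without K2 or K3, 0.0633), Gsta3 (without C2, C3, C4, K2, K3 or K4, 0.103) and Mgst2 (without any but C1 and K3, 0.187) lost the call with 1 library left out. Gstm7 (without C3, C4, C5, K1, K2 or K3, 0.116), Ugt1a6a (without C2, C3, C4, K1, K3 or K4, 0.123) and Ugt3a2 (without any but C5, K3 and K4, 0.176) did so too. Gstt3, Gsta3, Mgst2, Gstm7, Ugt1a6a and Ugt3a2 were not called in males alone, Gstt3, Ugt1a6a and Ugt3a2 without the oldest controls, Mgst2 and Ugt1a6a with age, Mgst2 and Ugt3a2 with no filter, Mgst2 and Ugt3a2 with a pseudocount of 0.1, Gsta3, Mgst2 and Ugt1a6a by limma-voom, and Ugt1a6a and Ugt3a2 by edgeR (adjusted p from 0.0521 to 0.22).

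Amino acid enzymes leaned lower. Of 47 tested genes, 38 were below 0, the median was -0.12, and 3 (6.38%) were called lower with 0 higher. Glul, glutamine synthetase and one of the abundant transcripts of the gland, read 15310 to 20273 (median 18187) in controls and 6709, 12702, 9098 and 11198 in KO males, a change of -0.91 ± 0.18 (adjusted p = 0.0125). Prodh, which begins proline breakdown in mitochondria, read 382 to 518 (median 469) in controls and 257, 237, 259.6 and 278 in KO males, a change of -0.79 ± 0.13. Ttc36, a tetratricopeptide protein tied to tyrosine breakdown, read 16.6 to 43.1 (median 27.6) against 9.56, 3.71, 5.43 and 6.48, a change of -2.01 ± 0.40. It shares 437 of its 918 exon bases with Gm48702 on the opposite strand, and reads there cannot be assigned. The groups did not overlap for Glul, Prodh or Ttc36, as was the case for 290 of all 354 calls. The amino acid importer genes Slc6a14 and Slc6a15 moved in opposite directions, at -2.34 ± 0.56 and 1.18 ± 0.16. Glul (without K1, 0.0609) and Slc6a14 (without any but C6 and K3, 0.154) lost the call with 1 library left out. Slc6a14 was not called in males alone, Slc6a14 without the oldest controls, Slc6a14 with no filter, Slc6a14 with a pseudocount of 0.1, Slc6a14 by limma-voom, and Slc6a14 by edgeR (adjusted p from 0.0583 to 0.0984).

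Of 39 tested genes of glycolysis and glucose handling limma and edgeR called 0 and DESeq2 1, with 6 at an unadjusted p under 0.05. Sord, Gulo and Khk, outside that list, were picked after their values were seen. Sord, sorbitol dehydrogenase of the polyol pathway, read 1778 to 2378 (median 2194) in controls and 932, 856, 1243 and 984 in KO males (chr2:122234749-122265340, plus strand), a change of -1.09 ± 0.12 (adjusted p = 2.61e-05). Gulo, the last enzyme of vitamin C synthesis, read 349.5 to 765 (median 409.9) in controls and 87.7, 124, 194 and 175 in KO males, a change of -1.66 ± 0.23 (adjusted p = 0.000338). Khk, the fructose kinase, fell by 0.38 ± 0.09. Miox, which turns inositol into glucuronate, was scarce, with 21 reads over the 6 controls and 1 over the 4 KO males, a ratio of 0.067 per total reads (exact 95% interval 0.00162 to 0.416, counting error only). Khk (without C1, C2, C5, K1, K3 or K4, 0.119) and Miox (without C2, C3, C4, K1, K2 or K3, 0.106) lost the call with 1 library left out. Khk and Miox were not called in males alone, Khk without the oldest controls, and Khk with age (adjusted p from 0.0639 to 0.18).

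Redox and iron genes gave a few small falls. Hmox1, haem oxygenase, changed by -0.70 ± 0.17, Prdx6, a peroxidase of phospholipid peroxides, by -0.38 ± 0.09 and the chaperone Hspa8 by -0.74 ± 0.18. Steap3, the ferrireductase of transferrin endosomes, read 210.5 to 397 (median 277) in controls and 128, 167, 147 and 169.5 in KO males, a change of -0.90 ± 0.16 (adjusted p = 0.00438). These were 2 of 33 redox genes, 2 of 37 iron and metal genes with Hmox1 on both lists, and 1 of 20 chaperones. Hmox1 (without any but C5, C6 and K1, 0.154), Prdx6 (without any but C1 and C5, 0.124) and Hspa8 (without any but C6, 0.144) lost the call with 1 library left out. Hmox1, Prdx6 and Hspa8 were not called without the oldest controls, Hmox1 and Hspa8 with age, Hmox1, Prdx6 and Hspa8 with no filter, Hmox1 and Hspa8 with a pseudocount of 0.1, and Prdx6 and Hspa8 by limma-voom (adjusted p from 0.0502 to 0.212).

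**Figure D2:**
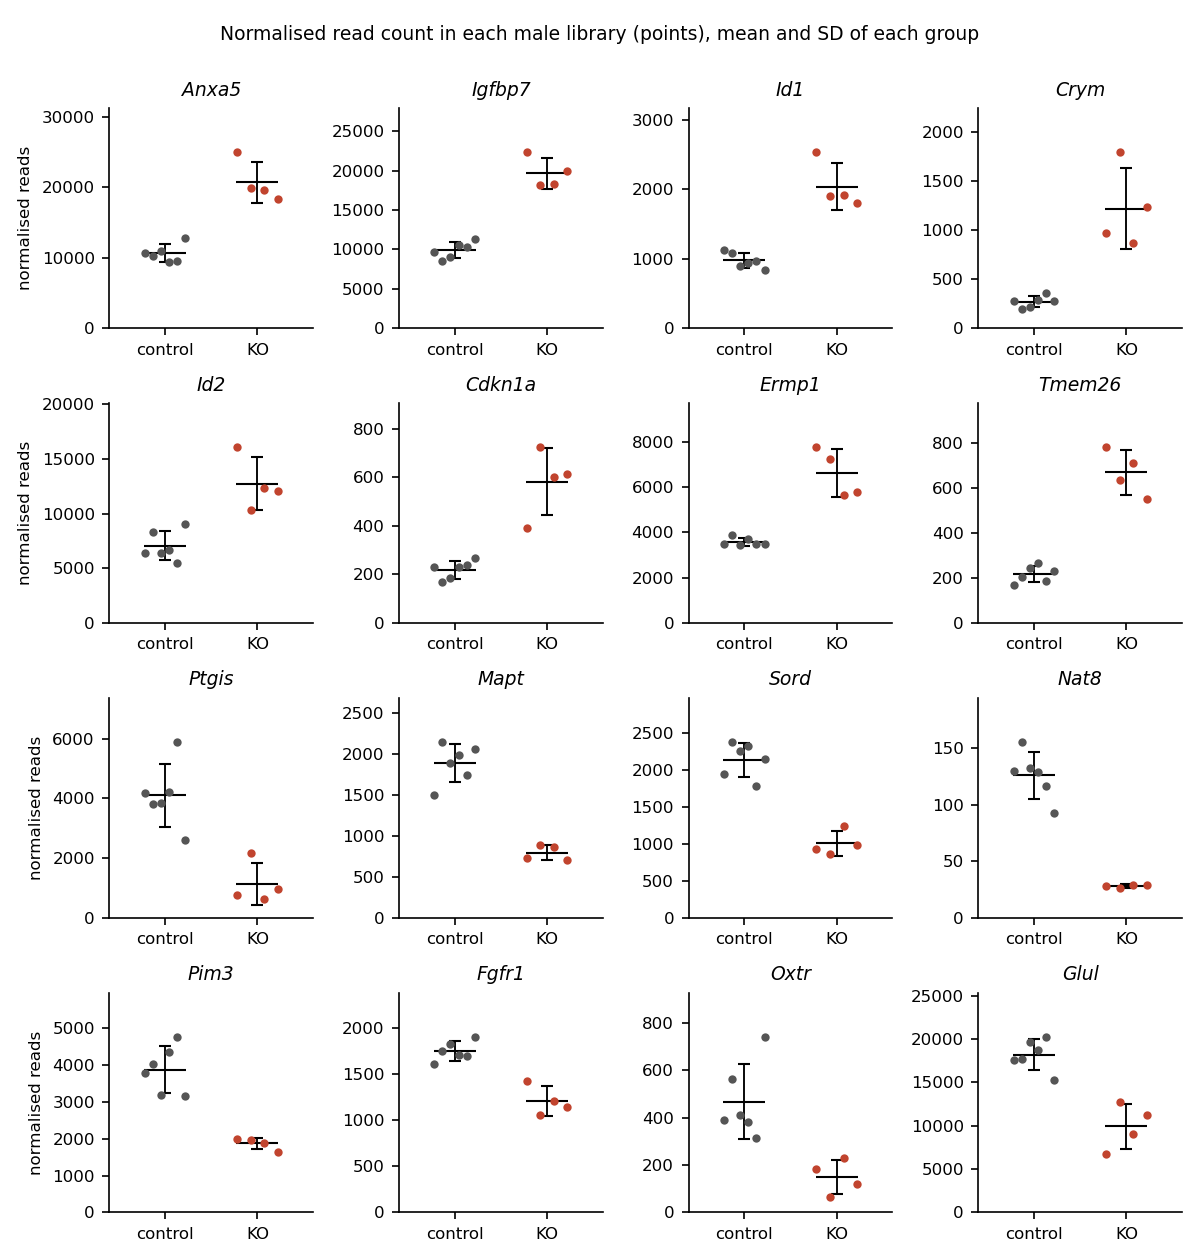
Normalised read counts (y axis, from 0) of 16 genes outside the core loop in each of the 6 control (grey) and 4 KO (red) males; dashes and bars are the mean and SD. The upper 8 genes were higher in all 4 KO males than in any control, such as Igfbp7 at 18154 and above against at most 11334, and the lower 8 were below every control in all 4. Of all 354 calls, 290 had groups that did not overlap.

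Genes of ID proteins and of insulin-like growth factor binding were called higher. Of 40 genes of TGF-beta, BMP and activin signalling, 4 were called higher and 0 lower (Id1, Id2, Id3 and Bmp5), while 21 stood above 0 and 19 below (median 0.03). ID proteins bind helix-loop-helix activators and block them, and their genes are known targets of BMP. Id2 (chr12:25093799-25097140, minus strand) read 5505 to 9044 (median 6541) in controls and 16090, 10345, 12368 and 12052 in KO males, a rise of 0.85 ± 0.12 (adjusted p = 0.000525). Id1 read 837 to 1122 (median 953) against 2535, 1900, 1916 and 1798, a rise of 1.06 ± 0.14 (adjusted p = 0.000163). KO male 1 held the highest value of both, and neither gene overlapped between the groups, as was the case for 290 of all 354 calls. Id3 rose by 0.51 ± 0.12 and the ligand Bmp5 by 1.53 ± 0.31. Bmp5 shares 1878 of its 4025 exon bases with Gm26903 on the opposite strand, and reads there cannot be assigned. Of 29 gonadal, pituitary and growth hormone genes 3 were called higher and 1 lower. Igfbp7, a secreted protein that binds insulin-like growth factors weakly, read 8550 to 11334 (median 10007) in controls and 22369, 18154, 18273 and 19914 in KO males, a rise of 0.99 ± 0.11 (adjusted p = 3.41e-05). Igfbp3, the main carrier of these factors in blood, rose by 0.98 ± 0.23 and Inha, the inhibin alpha subunit, by 0.73 ± 0.15. The oxytocin receptor gene Oxtr read 314 to 741 (median 399) in controls and 185, 65.8, 231 and 119 in KO males, a change of -1.72 ± 0.29. Id3 (without any but C5, 0.153), Bmp5 (without K3, 0.0527), Igfbp3 (without C2, C5, C6, K2, K3 or K4, 0.141) and Inha (without K1 or K3, 0.0544) lost the call with 1 library left out. Igfbp3 was not called in males alone, Id3 without the oldest controls, and Id3 with age (adjusted p from 0.0563 to 0.158).

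Ligands of receptor tyrosine kinases were called higher and a receptor lower, 3 and 1 of 46 genes. Fgf9 read 276 to 394 (median 342) in controls and 1053, 547, 643 and 413 in KO males, a rise of 0.90 ± 0.18, and the platelet-derived factor Pdgfd rose by 0.45 ± 0.09. Kitl, the ligand of KIT, rose by 0.56 ± 0.12. Fgfr1 (chr8:25513654-25575718, plus strand) read 1608 to 1902 (median 1727) in controls and 1427, 1053, 1210 and 1141 in KO males, a change of -0.54 ± 0.09 (adjusted p = 0.00158). Feedback inhibitors of these and of cytokine receptors moved both ways: Dusp6, a phosphatase of ERK, rose by 0.50 ± 0.12, Socs2, which limits growth hormone signalling, rose by 1.14 ± 0.27, and Errfi1, an inhibitor of the EGF receptor, fell by 0.66 ± 0.16. The kinase gene Pim3 read 3164 to 4772 (median 3898) against 1991, 1972, 1881 and 1641, a change of -1.04 ± 0.13 (adjusted p = 8.1e-05), with all KO males under every control. Shh, a morphogen made in outer cortex cells, read 623 to 2319 (median 2034) against 354, 769.7, 575 and 758, a change of -1.53 ± 0.30, and control male 6, the lowest control at 623, lay within the KO range. Hes6, a helix-loop-helix factor tied to Notch, fell by 0.77 ± 0.18. The 37 genes of WNT signalling had 0 calls by limma, with 9 at an unadjusted p under 0.05 (2899 of all 26612 tested genes), 1 call by edgeR and 2 by DESeq2. Kitl (without K2 or K3, 0.0846), Dusp6 (without any but C1, C6 and K2, 0.158), Socs2 (without C2, C4, K1, K2 or K3, 0.14), Errfi1 (without C2, C4, K1, K3 or K4, 0.141) and Hes6 (without C1, C3, K2 or K4, 0.145) lost the call with 1 library left out. Fgf9, Kitl, Dusp6, Socs2, Errfi1 and Shh were not called in males alone, Fgf9, Pdgfd, Kitl, Dusp6, Socs2, Errfi1, Shh and Hes6 without the oldest controls, Socs2 with age, Dusp6 and Errfi1 with no filter, and Dusp6 and Socs2 by limma-voom (adjusted p from 0.0517 to 0.172).

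The cell-cycle brake Cdkn1a and a few mitotic genes were called higher. Cdkn1a, which encodes the cyclin-dependent kinase inhibitor p21, read 167 to 265 (median 230.5) in controls and 390.5, 725, 602 and 613 in KO males, a rise of 1.39 ± 0.20 (adjusted p = 0.000406), with KO male 1 the lowest KO male and still above each control. Trp53inp1, a p53-induced gene of autophagy, rose by 0.74 ± 0.14, and these were 2 of 27 genes on that list. Of 33 proliferation genes, 30 stood above 0, the median was 0.31, and 1 was called, the spindle checkpoint kinase Bub1 at 1.29 ± 0.31. An unadjusted p under 0.05 was reached by 15 of the 33, beside 2899 of all 26612 tested genes, and edgeR called 1 and DESeq2 2. Tpx2 (0.87 ± 0.18), Spag5 (0.83 ± 0.20) and Sgol2a (0.96 ± 0.24), spindle and centromere proteins picked after their values were seen, were called higher too. Sgol2a shares 2455 exon bases with Kctd18 on the opposite strand. Of 21 glucocorticoid receptor genes and targets 2 were called higher and 1 lower. Cdkn1a is on that list, Sgk1, a kinase that promotes sodium transport, rose by 0.30 ± 0.07, and Errfi1 fell by 0.66 ± 0.16. Apaf1, the scaffold of the apoptosome and also picked after its values were seen, rose by 0.83 ± 0.16. Bub1 (without any but C2, C6 and K2, 0.134), Tpx2 (without K3 or K4, 0.0639) and Spag5 (without any but C4 and C6, 0.134) lost the call with 1 library left out. Sgol2a (without any but C4 and C6, 0.141), Sgk1 (without C2, C5, K1, K2 or K3, 0.108) and Errfi1 (without C2, C4, K1, K3 or K4, 0.141) did so too. Bub1, Spag5, Sgol2a, Sgk1, Errfi1 and Apaf1 were not called in males alone, Spag5, Sgol2a, Sgk1 and Errfi1 without the oldest controls, Spag5 and Sgol2a with age, Sgol2a and Errfi1 with no filter, and Bub1 and Sgol2a by limma-voom (adjusted p from 0.0501 to 0.196).

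Some genes of the matrix and of cell adhesion were called higher. Of 44 collagens 2 were called higher and 0 lower, of 62 laminins, integrins and matricellular proteins 3 and 0, and of 85 serine proteases and serpins 4 and 0. Above 0 stood 31, 38 and 46 of them, with medians of 0.21, 0.11 and 0.07. Of 71 cadherins and protocadherins 0 were called higher and 1 lower, Cdhr5. Col5a3 and Col5a1, chains of the collagen V that starts fibrils, rose by 0.89 ± 0.14 and 0.82 ± 0.16, at 1041 to 1783 (median 1362) in controls and 2845, 2331, 2304 and 2389 in KO males for the first. Fbn1, the microfibril protein fibrillin, read 261 to 459.8 (median 391) in controls and 716, 823, 829.8 and 951 in KO males, a rise of 1.15 ± 0.17 (adjusted p = 0.000787). Its exons overlap Gm9913 over 2442 bases on the plus strand. The integrin chains Itgb1, shared by many collagen and fibronectin receptors, and Itgb3 rose by 0.46 ± 0.07 and 0.89 ± 0.16, and Itga2 by 0.83 ± 0.20. Secreted proteases rose: Prss12, neurotrypsin, at 19.4 to 34.2 (median 23.8) in controls and 90.1, 139, 76.03 and 83.1 in KO males, by 1.88 ± 0.28, Htra1 by 0.62 ± 0.12 and Htra3 by 0.57 ± 0.13. Serpina6, corticosteroid-binding globulin, rose by 1.49 ± 0.34, with KO male 2 at 209.6 inside the control range. A2m, a broad protease inhibitor, rose by 1.72 ± 0.36. Itga2 (without any but C6 and K2, 0.173), Htra3 (without any but C4 and C5, 0.114), Serpina6 (without C2, K1, K3 or K4, 0.121) and A2m (without K1, 0.0544) lost the call with 1 library left out. Itga2 and Serpina6 were not called in males alone, Col5a1, Itga2, Htra3 and A2m without the oldest controls, Itga2 with age, Itga2 with no filter, and A2m by limma-voom (adjusted p from 0.0517 to 0.186).

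Genes not on a list that build or modify the same structures were picked after their values were seen. Loxl2, which crosslinks collagen, rose by 0.91 ± 0.17, Tinagl1, a basement membrane protein, by 0.76 ± 0.10, and the heparan sulfate proteins Gpc6 and Sdc4 by 0.88 ± 0.13 and 0.51 ± 0.11. Sulf2, which trims sulfate from heparan sulfate, rose by 0.82 ± 0.20. Anxa5, annexin A5, a calcium-dependent binder of phosphatidylserine, had the largest gain in reads among them, at 9441 to 12844 (median 10498) in controls and 25018, 19866, 19675 and 18406 in KO males (chr3:36448923-36475894, minus strand), a change of 0.96 ± 0.10 (adjusted p = 1.33e-05). Vinculin (Vcl), which ties adhesions to actin, rose by 0.42 ± 0.07, Nedd9 by 0.90 ± 0.14, the kinase Pak1 by 0.57 ± 0.09, Shroom4 by 0.76 ± 0.11 and the tubulin Tubb6 by 1.004 ± 0.16. Vcl shares 2090 exon bases with Ap3m1 on the opposite strand. The matrix proteins Tgfbi and Aebp1 changed by -0.86 ± 0.19 and -0.59 ± 0.12. Ermp1, a metallopeptidase of the endoplasmic reticulum, read 3462 to 3880 (median 3489) in controls and 7777, 7253, 5641 and 5793 in KO males, a rise of 0.87 ± 0.09. The vessel growth factor Figf (VEGF-D) rose by 0.95 ± 0.17. Sdc4 (without K1 or K2, 0.074), Sulf2 (without any but C5 and C6, 0.12), Tgfbi (without any but C1, C6 and K2, 0.108) and Aebp1 (without K2, 0.0507) lost the call with 1 library left out. Sdc4 and Tgfbi were not called in males alone, Sulf2 and Tgfbi without the oldest controls, Sulf2 and Tgfbi with age, and Sulf2 with no filter (adjusted p from 0.0512 to 0.175).

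Markers of the cells that make matrix, and of other cell types, are given beside these changes. Of 15 capsule and fibroblast markers, Fbn1 was the 1 call, 14 stood above 0 with a median of 0.25, and their summed level was 6820 to 14633 in controls and 9555 to 15714 in KO males. Of 15 endothelial markers 12 stood above 0 (median 0.13), with sums of 22502 to 26440 and 25687 to 29044. Of the pericyte, Schwann cell, neuron, T cell, B cell, granulocyte, adipocyte, red cell, kidney, liver and epithelial lists limma called 0 members, with at most 2 of each at an unadjusted p under 0.05, edgeR called 0, and DESeq2 called 1 pericyte, 2 B cell and 1 adipocyte marker. Kap, Slc34a1 and Umod of the kidney, Fga of the liver, Ly6g of granulocytes and Esrp1 of epithelium were at 0 in all males. The 9 markers of mesothelium, the sheet that covers the organs, had a summed level of 207 to 311 in controls and 314 to 510.1 in KO males. Most of it was Lrrn4, a leucine-rich repeat protein, at 149.9 to 242.7 and 241.8 to 463.1, and without it the sums were 47.7 to 81.03 and 47.02 to 87.2. The median change of the 7 that were tested was -0.25 and limma called 0 (1 by edgeR and by DESeq2, and 1 at an unadjusted p under 0.05). Of 17 chromaffin markers all stood below 0 (median -0.14) and 0 were called, with sums of 116313 to 272204 in controls and 149745 to 189122 in KO males. At an unadjusted p under 0.05 the capsule, endothelial and chromaffin lists had 2, 6 and 1 members, beside 2899 of all 26612 tested genes. Of the endothelial and chromaffin markers edgeR and DESeq2 called 0. No marker of capsule, endothelium or medulla was at 0 in all males. The part that a changed share of these cells plays in the matrix genes was not tested.

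**Figure D3:**
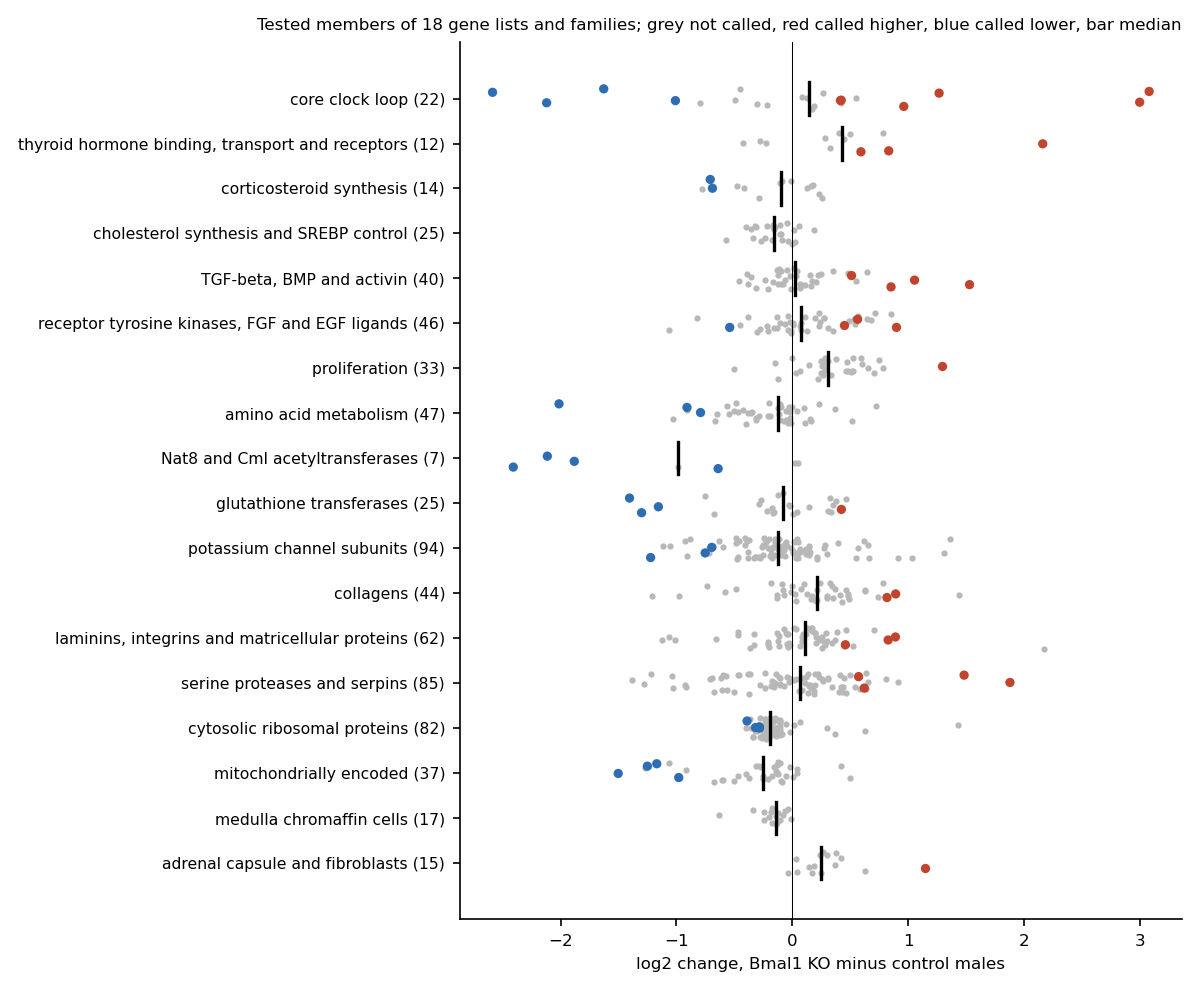
Log2 change (x axis, KO minus control) of every tested member of 18 lists and families, with the number tested in brackets and a bar at the median. Called members stand to both sides in the core clock loop, to the right in collagens, proteases and the TGF-beta list, and to the left in the Nat8 and Cml cluster, amino acid enzymes and ribosomal proteins.

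Gpnmb and Mmp12, known from lipid-laden macrophages, rose by 2.83 ± 0.66 and 1.52 ± 0.35. Gpnmb read 2.21 to 38.7 (median 22.6) in controls and 119, 106, 149 and 175 in KO males, and Mmp12 119 to 330.2 (median 208) against 444, 548, 496 and 758. Of the 14 genes of that list 12 stood above 0 (median 0.50) and 2 were called. The summed level was 19409 to 24560 in controls and 21657 to 23815 in KO males, so the groups overlapped. Most of this sum was Ctsd, at 13416 to 16798 and 13344 to 17401, so it says little about the scarcer members. Atp6v0d2, which was not called, read 1.91 to 14.7 in controls and 21.7 to 35.6 in KO males. Of 15 resident macrophage markers 8 stood above 0 (median 0.03), with sums of 8427 to 10705 and 6899 to 12301. No marker of either list was at 0 in all males, and their part in the 2 calls was not tested. Gpnmb (without C1, C3, K1, K2, K3 or K4, 0.109) and Mmp12 (without C1, C3, K2, K3 or K4, 0.126) lost the call with 1 library left out. Gpnmb and Mmp12 were not called without the oldest controls, and Gpnmb and Mmp12 by limma-voom (adjusted p from 0.0544 to 0.108).

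Ion channels and receptors moved in both directions. Of 94 potassium channel subunits 3 were called lower and 0 higher, and the family sum was 35254 to 45959 in controls and 23760 to 33583 in KO males. Most of this sum was Kcnk3, and without it the sums were 13280 to 16752 and 12693 to 13634. Kcnk3 (TASK1), a leak channel that sets the resting potential of glomerulosa cells, read 19858 to 30235 (median 23424) in controls and 20469, 10653, 16300 and 11067 in KO males, a change of -0.75 ± 0.15, and KO male 1 lay within the control range. Kcnk1 and Kcnn1 changed by -1.22 ± 0.28 and -0.69 ± 0.16. Kcnk3 shares 229 exon bases with Gm9899 on the minus strand. Among 24 chloride channels and anoctamins Clcn2, the chloride channel of glomerulosa cells, read 1198 to 1622 (median 1420) in controls and 987, 873, 1097 and 955 in KO males, a change of -0.53 ± 0.09 (adjusted p = 0.0017), and Clcn3 rose by 0.24 ± 0.06. The intracellular channel relative Clic5 rose by 0.85 ± 0.11 and Clic6 changed by -3.10 ± 0.62, at 45.3 to 320.1 (median 137) in controls and 3.98, 38.02, 10.9 and 22.7 in KO males. Kcnk3 (without K2 or K4, 0.072), Kcnk1 (without any but C6 and K2, 0.122), Kcnn1 (without any but C1, C4 and C6, 0.108), Clcn3 (without any but C5 and C6, 0.169) and Clic6 (without K1, 0.0519) lost the call with 1 library left out. Kcnk3, Kcnn1 and Clcn3 were not called in males alone, Kcnk1, Kcnn1 and Clcn3 without the oldest controls, Kcnk1, Kcnn1 and Clcn3 with age, and Clcn3 with no filter (adjusted p from 0.05 to 0.215).

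Among receptors, the noradrenaline receptor gene Adra1d read 169 to 225 (median 196) in controls and 576, 293, 429 and 391 in KO males, a rise of 1.05 ± 0.15 (adjusted p = 0.000575). Htr3a, a serotonin-gated channel, fell by 0.83 ± 0.16, and Tacr2, a tachykinin receptor named after its values were seen, fell by 0.82 ± 0.14. The chemokine receptor Cxcr4 changed by -0.81 ± 0.19, the cytokine receptor chain Il10rb by -0.39 ± 0.08 and the orphan receptor Gpr146 by -0.45 ± 0.09. The gap junction gene Gja1 (connexin 43), which joins cortex cells, fell by 0.67 ± 0.15. In cyclic nucleotide signalling, Adcy7, an adenylate cyclase, rose by 0.64 ± 0.14 (1 of 34 genes of the ACTH and cAMP list). Pde5a, which breaks down cyclic GMP, read 2382 to 3789 (median 2896) in controls and 6722, 5727, 6111 and 3850 in KO males, a rise of 0.90 ± 0.15 (1 of 20 phosphodiesterases). Cxcr4 (without any but C6 and K3, 0.145), Il10rb (without K4, 0.0505), Gja1 (without C1, C2, K1, K2 or K3, 0.099) and Adcy7 (without C1, C2, C3, K1 or K3, 0.0911) lost the call with 1 library left out. Htr3a, Il10rb and Gpr146 were not called in males alone, Htr3a, Cxcr4, Gja1 and Adcy7 without the oldest controls, and Gja1 by limma-voom (adjusted p from 0.0547 to 0.154).

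Few genes of small GTPases, their regulators and vesicle release were called. Of 261 genes of small GTPases and their regulators 7 were called higher and 2 lower (3.45%), 135 stood above 0 and the median was 0.01. Of 79 genes of vesicle release 3 were called higher and 0 lower, while 48 stood below 0 (median -0.05). Rnd3, an atypical small GTPase, read 711 to 1275 (median 863) in controls and 1808, 1420, 1691 and 1501 in KO males, a rise of 0.84 ± 0.14 (adjusted p = 0.0023), and the recycling GTPases Rab11a and Rab4a rose by 0.31 ± 0.07 and 0.44 ± 0.11. Rap1a, Arhgap5, Arhgap31 and Arhgef37 rose by 0.29 ± 0.07, 0.40 ± 0.08, 0.33 ± 0.08 and 1.11 ± 0.20. Rasd1, a RAS relative induced by glucocorticoids, fell by 1.30 ± 0.25, at 931 to 2465 (median 2020) in controls and 447, 764, 913 and 976 in KO males, and Tbc1d9 fell by 0.58 ± 0.13. Stx1a, Syt14 and Sytl5, of the membrane fusion machinery, rose by 0.62 ± 0.14, 0.53 ± 0.10 and 0.94 ± 0.22. Dync1i1, an intermediate chain that links the dynein motor to cargo, read 29.8 to 61.8 (median 50.95) in controls and 114, 303, 112 and 151 in KO males, a rise of 1.74 ± 0.28 (adjusted p = 0.00137), with KO male 2 the highest. Mapt, the microtubule protein tau, named after its values were seen, read 1501 to 2147 (median 1942) in controls and 730.1, 882, 857 and 702 in KO males, a change of -1.25 ± 0.12 (adjusted p = 4.49e-06), and the myosin Myh14 fell by 1.18 ± 0.20. Guidance genes Slit1, Epha7 and Plxnc1 rose by 0.76 ± 0.17, 1.20 ± 0.28 and 1.42 ± 0.33, 3 of 76. Rab11a (without K1, 0.0728), Rab4a (without any but C5, C6 and K2, 0.143), Rap1a (without any but C6, 0.117), Arhgap5 (without K2 or K4, 0.0666), Arhgap31 (without C2, C5, K1, K2, K3 or K4, 0.129) and Tbc1d9 (without C1, C2, C3, K1, K2 or K3, 0.0994) lost the call with 1 library left out. Stx1a (without C4, K1, K2 or K3, 0.108), Sytl5 (without any but C3, C6 and K2, 0.117), Slit1 (without any but C6 and K2, 0.106), Epha7 (without any but C1, C5 and K3, 0.136) and Plxnc1 (without C2, C3, K1, K2 or K4, 0.14) did so too. Rab11a, Rab4a, Rap1a, Arhgap31, Rasd1, Sytl5, Slit1, Epha7 and Plxnc1 were not called in males alone, Rab11a, Rab4a, Rap1a, Arhgap5, Arhgap31, Rasd1, Tbc1d9, Sytl5, Slit1 and Plxnc1 without the oldest controls, and Rab4a, Rap1a, Arhgap31 and Slit1 with age (adjusted p from 0.0502 to 0.177).

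Transcripts of translation and of mitochondria stood lower by small steps. Of 82 cytosolic ribosomal protein genes 76 were below 0 with a median of -0.19. For 18 of them the groups did not overlap, beside 817 (3.07%) of all 26612 tested genes. An unadjusted p under 0.05 was reached by 46 of the 82, beside 2899 of all tested genes. Calls in this family depended on the tool, with 6 by edgeR and 19 by DESeq2. Rpl37, Rps14 and Rps19 were called, with changes of -0.39 ± 0.09, -0.28 ± 0.07 and -0.28 ± 0.07. The sum over the family was 500147 to 578616 in controls and 432152 to 501659 in KO males. Of 93 nuclear genes of the respiratory chain 82 were below 0 (median -0.14) and 1 was called, Ndufb6 at -0.29 ± 0.07, a share of 1.08% beside 1.33% of all genes. Of 37 mitochondrially encoded genes 4 (10.8%) were called lower, all of them transfer RNAs: mt-Tw for tryptophan (-1.50 ± 0.29), mt-Tm for methionine (-1.25 ± 0.24), mt-Tl1 for leucine (-1.17 ± 0.26) and mt-Tq for glutamine (-0.98 ± 0.18). mt-Tm read 126 to 247 (median 179.8) in controls and 64.6, 63.1, 91.2 and 72.3 in KO males. Under TMM scaling the medians of the 3 lists were -0.19, -0.13 and -0.25. Rpl37 (without C1, C2, C3, C5, K3 or K4, 0.148), Rps14 (without any but C3, C6 and K2, 0.186), Rps19 (without any but C3 and K2, 0.21), Ndufb6 (without any but C1, C6 and K1, 0.15) and mt-Tl1 (without C2, C3, C4, K1, K2 or K4, 0.103) lost the call with 1 library left out. Rpl37, Rps14, Rps19, Ndufb6, mt-Tw and mt-Tl1 were not called in males alone, Rpl37, Rps14, Rps19, Ndufb6, mt-Tw and mt-Tl1 without the oldest controls, Rpl37, Rps14, Rps19 and mt-Tl1 with age, Rps14 and Rps19 with no filter, Rps14 and Rps19 with TMM, and Ndufb6 by limma-voom (adjusted p from 0.0513 to 0.205).

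Other genes among the 20 largest changes in each direction belong to no theme. Trim40, a tripartite motif protein, had the lowest log2 change, at 18.8 to 189 (median 54.4) in controls and 2.39, 1.85, 4.34 and 5.4 in KO males, a change of -3.83 ± 0.53 (adjusted p = 0.000307). Mybpc1, a myosin-binding protein of slow muscle, read 67.3 to 214 (median 114) in controls and 8.77, 8.35, 14.1 and 25.9 in KO males, a change of -3.11 ± 0.51; it was the 1 call of 15 skeletal muscle markers, of which 8 stood above 0, with no marker at 0. The muscle markers other than Mybpc1 summed to 122 to 197 in controls and 126 to 196 in KO males. Cdhr5, a cadherin of microvilli, changed by -2.11 ± 0.27, the G protein subunit Gng13 by -1.90 ± 0.36 and Samd5 by -1.73 ± 0.30. Gng13 shares 399 of its 773 exon bases with Chtf18 on the opposite strand, and reads there cannot be assigned. Lenep, at 4.94 to 40.01 (median 31.9) and 0, 0, 0 and 9.71, shares 1790 exon bases with Flad1 and its value is uncertain. Tmem26, a membrane protein, read 170.0 to 265 (median 218) in controls and 781, 635, 710.3 and 549 in KO males, a rise of 1.63 ± 0.13 (adjusted p = 3.91e-07). The adhesion molecule Igsf11 rose by 1.71 ± 0.23, the nuclear factor Tox2 by 1.52 ± 0.19 and Serinc2 by 1.69 ± 0.25. Tecta, a matrix protein of the inner ear, rose by 2.21 ± 0.49, Dmrta1 by 2.08 ± 0.45, the adhesion molecule Cntn4 by 2.20 ± 0.49, Siah3 by 1.995 ± 0.48, Ccdc42b by 1.91 ± 0.42 and Zfp648 by 1.84 ± 0.43. Sprr1a, a cornified envelope protein, had 3 reads over the 6 controls and 62 over the KO males, a ratio of 29.1 (exact 95% interval 9.49 to 144.8, counting error only). Il24, a cytokine of the IL-10 family, had 5 and 34 reads, a ratio of 9.56 (3.72 to 31.3). Lenep (without C2, C3, K1, K2 or K3, 0.0898), Tecta (without C1, C4, K1 or K2, 0.101), Dmrta1 (without C3 or K4, 0.112) and Cntn4 (without C4, K1, K3 or K4, 0.104) lost the call with 1 library left out. Siah3 (without any but C1 and C6, 0.126), Ccdc42b (without C2, C3, K1 or K2, 0.0933), Zfp648 (without any but C1, C3 and C6, 0.104) and Il24 (without K2, 0.0606) did so too. Lenep, Tecta, Dmrta1, Cntn4, Siah3, Ccdc42b and Il24 were not called in males alone, Tecta, Siah3, Ccdc42b, Zfp648 and Gng13 without the oldest controls, Zfp648 with no filter, Cntn4, Siah3, Zfp648 and Il24 with a pseudocount of 0.1, and Lenep by edgeR (adjusted p from 0.0517 to 0.314).

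Of 357 solute carriers 1.68% were called, close to the share of all genes. The carnitine and monocarboxylate carrier Slc16a9 rose by 0.81 ± 0.13 (adjusted p = 0.00122), at 199 to 271 (median 241) in controls and 485, 478, 322 and 409 in KO males, and the phosphate importer Slc20a2 rose by 0.39 ± 0.09. Slc20a2 (without any but C3, C6 and K2, 0.12) lost the call with 1 library left out. Slc20a2 was not called in males alone, Slc20a2 without the oldest controls, and Slc20a2 with age (adjusted p from 0.0526 to 0.166).

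The same contrast in females called 467 genes (1.75%). Of the male calls, 150 were called in females in the same direction (96 higher, 54 lower) and 0 in the opposite one, which is 42.4% of the male and 32.1% of the female calls. Of the 204 called in males and not in females, 174 had the same sign in females and 30 the opposite. The test of the difference between the male and the female effect called 8 of 26612 genes (0.0301%), and all 8 had a more negative effect in males. Prodh changed by -0.79 ± 0.13 in males and 0.45 ± 0.13 in females, a difference of -1.24 ± 0.18 (adjusted p = 0.0183). Pim3 changed by -1.04 ± 0.13 and -0.02 ± 0.12 (difference -1.02 ± 0.18, adjusted p = 0.0357). The surfactant gene Sftpc changed by -1.71 ± 0.22 and 0.11 ± 0.21 (adjusted p = 0.0331). Clic5 and the exchange factor Arhgef37 rose in both sexes, less in males: 0.85 ± 0.11 against 1.85 ± 0.11 (adjusted p = 0.0315) and 1.11 ± 0.20 against 2.75 ± 0.20 (adjusted p = 0.0333). Pcdh7, a protocadherin, and Metrnl, a secreted relative of meteorin, were called in females only, at 2.99 ± 0.32 and 1.27 ± 0.16 against 0.27 ± 0.33 and -0.09 ± 0.16 in males (difference adjusted p = 0.0331 and 0.0315). The small nucleolar RNA gene Gm23991 held 21 reads over the control males and 1 over the KO males, a ratio of 0.067 (exact 95% interval 0.00162 to 0.416). All 93 exon bases of Gm23991 are shared with 2410002F23Rik on the same strand, so its reads cannot be assigned and its value is uncertain. None of the 8 differences remained called without KO male 2, 3 or 4, without the oldest controls or with age as a covariate (0 calls in each by limma, beside 1521 to 1801 genes at an unadjusted p under 0.05), while edgeR called 10, limma-voom 3, DESeq2 82 and the fit without control male 4 16. Without control male 2 there were 2 and without control male 1 or KO male 1 there were 5.

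**Figure D4:**
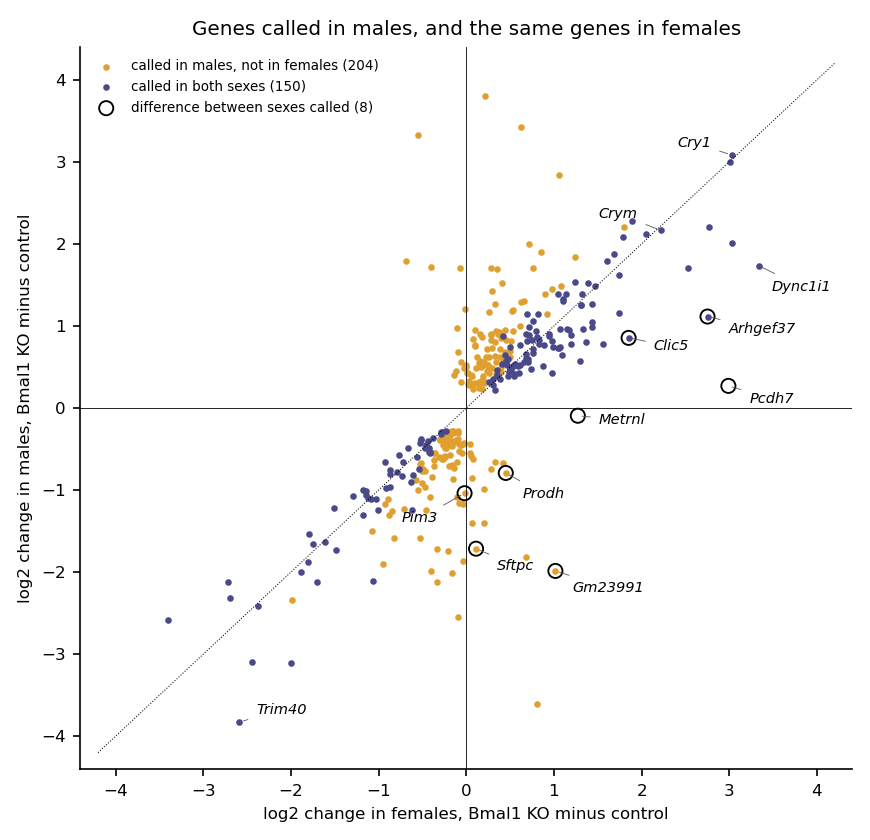
Log2 change in females (x axis) and males (y axis) of the 354 genes called in males, with the 8 genes whose change differed between the sexes circled; the dotted line marks equal change. The 150 genes called in both sexes lie in the lower left and upper right, and Prodh, Sftpc and Pim3 fell in males with female values near 0 or above.

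Arntl lies on chromosome 7, and genes near an altered allele can carry sequence of the strain it was made in, so calls were counted by distance. The strain is not given in the sources used here. Within 10 Mb of Arntl, 6 of 249 tested genes (2.41%) were called, between 10 and 20 Mb 8 of 361 (2.22%), on the rest of the chromosome 17 of 1559 (1.09%) and on other chromosomes 323 of 24442 (1.32%). The 6 were Crym, Insc, Ampd3, Tmem159, Acsm5 and a processed pseudogene, ENSMUSG00000107383. Crym lies 6.87 Mb from Arntl and its neighbour Tmem159, a lipid droplet protein, 6.79 Mb away, and Tmem159 rose by 0.77 ± 0.15, at 4040 to 5606 (median 4825) in controls and 7819, 10216, 6570 and 8423 in KO males. Insc and Tmem159 are named for their place. Insc, an adaptor of spindle orientation 1.43 Mb away, rose by 1.26 ± 0.25 and Ampd3, an AMP deaminase, by 0.72 ± 0.16. Crym, Insc and Tmem159 were also called in females. The part of flanking sequence in these calls was not tested. The count within 10 Mb was 4 to 7 when 1 male library was left out. Insc (without K1, 0.05), Ampd3 (without K2, K3 or K4, 0.0831) and Acsm5 (without C1, C2, C3, C5, K3 or K4, 0.131) lost the call with 1 library left out. Ampd3 and Acsm5 were not called in males alone, Acsm5 without the oldest controls, and Acsm5 with age (adjusted p from 0.0542 to 0.161).

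**Figure D5:**
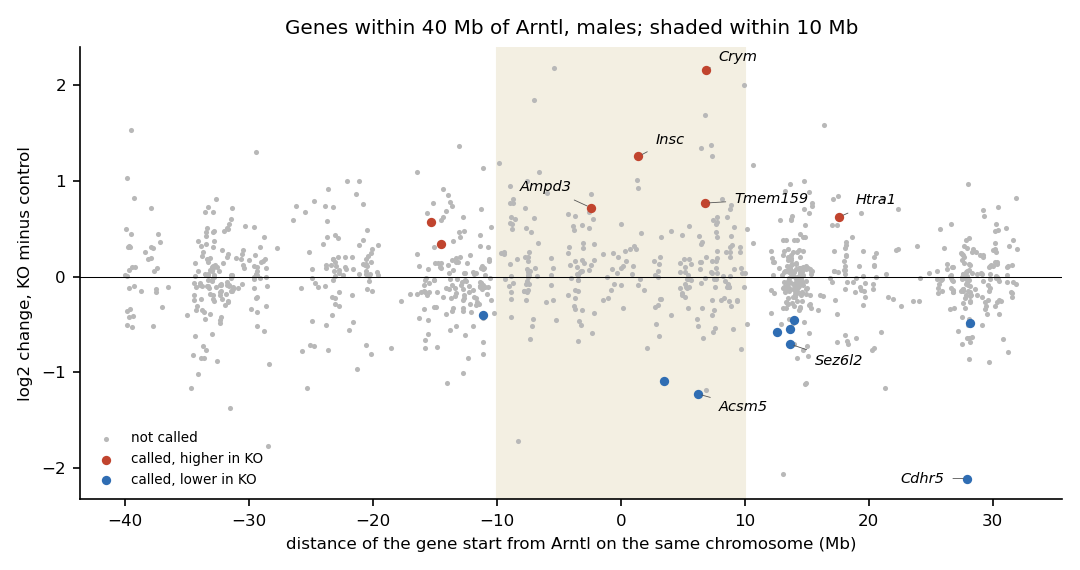
Log2 change (y axis, KO minus control) of tested genes within 40 Mb of Arntl on the same chromosome, with 10 Mb to each side shaded. The x axis, labelled as the distance of the gene start, is the gap in Mb between the nearest ends of the gene and Arntl. Calls lie on both sides of 0, and Crym, at 2.16, stands highest of those called.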

How the data were processed

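Normalised counts of 20 adrenal RNA-seq libraries were deposited as 1 table. The labels' protocols name Direct-zol for extraction and TruSeq RNA for library making. Builds mm10 and GRCm38 are listed in the submitters' processing notes beside DESeq2, featureCounts, Salmon, MultiQC and FastQC, with no order and no versions, and strand is not stated there. Each deposited value is a signal, which by its steps is a read count divided by 1 factor per library. Whole reads were recovered from these steps for 100% of values (tolerance 0.001), and the recovered reads gave the depth of 13421985 to 26742820 reads for males.

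The filter kept 26612 of 47729 genes, those that reached a value of 1 in 4 or more libraries. The test was limma 3.58.1 (R 4.3.3) on log2(value + 1) with all 4 groups of both sexes in 1 fit, so that they share an estimate of the spread, and with Benjamini-Hochberg adjustment over all genes tested. A gene was called at an adjusted p under 0.05. On this log2 scale the change of a scarce gene is understated. Count tests on recovered reads with edgeR 4.0.16 and DESeq2 1.42.0, limma-voom, TMM scaling, no filter, a pseudocount of 0.1, males alone, age as a covariate, a replicate block and left-out libraries were alternatives. The scripts were tested on simulated data. Coordinates, biotypes and exon overlaps came from GENCODE M21 on GRCm38, in which 47224 genes were found, and start regions from RefSeq.

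Genes were named by a rule: the 20 largest calls in each direction with a gene name, and called members of 64 gene lists and 42 families defined by symbol; others are marked as named after their values were seen. Some called genes that the rule names are not reported here. The comparison, the lists and the families were chosen with earlier results of these data known. Intervals for scarce genes are exact 95% binomial intervals and cover counting error only, since reads without molecular identifiers are not independent molecules.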

Additional observations from a re-analysis of the deposited data

Results flagged for a closer look

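In 27 of 322 checks of the named genes by group, 1 library stood apart from the rest of its group by Dixon's criterion, which chance meets in about 1 in 20 groups. Control male 6 was the odd library for 6 genes: Star at 386386 normalised reads (the other controls 226155 to 265043), Shh at 622.9 (1772 to 2319), Slit1 at 1922 (843.6 to 1069), Tecta at 58.54 (12.31 to 23.86), Itga2 at 67.37 (43.48 to 50.38) and Rap1a at 3901 (3082 to 3274). Control male 2 stood low for Npas2 at 94.99 (138.3 to 157.9) and Arhgap31 at 618.8 (717.9 to 764.5) and high for Bub1 at 39.66 (13.84 to 22.9). Control male 1 stood low for Cdhr5 at 146.3 (231.9 to 278.5) and high for Rnd3 at 1275 (710.8 to 916.7). Control male 3 stood low for Rps19 at 6941 (7639 to 7765) and high for Sgk1 at 2994 (2395 to 2603). Control male 5 stood high for Errfi1 at 3755 (1675 to 2395) and Col5a1 at 1854 (1339 to 1524), and control male 4 for Arhgap5 at 1644 (1403 to 1492).

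Among KO males, number 1 stood high for Id1 at 2535 (1798 to 1916), Col5a3 at 2845 (2304 to 2389) and Rab11a at 3564 (3102 to 3166), and for Gm23991 at 0.797 where the other 3 were at 0. KO male 2 stood high for Ampd3 at 1590 (1334 to 1369) and Zfp937 at 472.9 (344.3 to 360.5). KO male 3 stood low for Akr1cl at 21451 (24953 to 25499) and Epha7 at 189 (348.7 to 380.2). KO male 4 stood high for Dmrta1 at 49.65 (15.76 to 18.33), and for Lenep at 9.714 and Miox at 1.079 where the other 3 were at 0.

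The effect of the KO differed between the sexes for 8 genes by limma's test of the difference. The male effect minus the female effect, on the log2 scale, was -3.00 for Gm23991, -2.72 for Pcdh7, -1.83 for Sftpc, -1.64 for Arhgef37, -1.37 for Metrnl, -1.24 for Prodh, -1.02 for Pim3 and -0.998 for Clic5. The value for Gm23991 is uncertain, since it rests on few reads and all its exon bases are shared with 2410002F23Rik.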

How the results depend on the processing

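The 354 calls in males became 219 with the male libraries fitted alone, 732 with DESeq2 and 200 without the oldest control males, and ranged from 217 to 484 when 1 male library was left out. They were 401 with edgeR, 351 with limma-voom, 325 with age as a covariate, 324 with no filter, 339 with a pseudocount of 0.1 and 355 with TMM scaling. The fits without libraries and of males alone applied the filter again to the libraries kept. The 8 sex differences became 3 with limma-voom, 82 with DESeq2, 10 with edgeR, 0 with age as a covariate and 0 without the oldest control males, the last an alternative chosen after seeing the data, as were the counts per list and near Arntl under every setting. With 1 library left out they ranged from 0 to 16. Counts of 0 stood beside 1801 genes at an unadjusted p under 0.05 with age, 1584 without the oldest controls, and 1632, 1545 and 1521 without KO males 2, 3 and 4. Of 3207 values of named genes under other settings, 2450 kept their side of the threshold, 755 were no longer called, 2 were newly called and 0 turned direction. The cause of these shifts was not tested.

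Replicate numbers are given to both male groups, and a fit with the number as a replicate block called 350 genes, 264 of them among the 354, and 9 sex differences. Deviations of same-numbered males from their group means correlated at -0.061, -0.003, -0.022 and -0.031, and no KO male correlated best with the control of its own number. Whether same-numbered males share a litter or a batch is not given, and these correlations over all genes cannot tell. Genes with few reads, such as Sprr1a, Il24, Miox and Gm23991, are limited by depth.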

Other observations

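Among called genes on none of the lists above, chosen after their values were seen, some handle calcium. Atp2b3, a calcium pump of the plasma membrane, fell by 0.66 ± 0.13 and Hpcal4, a neuronal calcium sensor relative, fell by 1.07 ± 0.20. Atp2b3 read 1493 to 2804 (median 2146) in controls and 1314, 1539, 1298 and 1253 in KO males (adjusted p = 0.00702). Of the 37 genes on the calcium signalling list limma, edgeR and DESeq2 called 0, with 5 at an unadjusted p under 0.05. Atp2b3 was not called in males alone (adjusted p = 0.057).

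Regulators of gene expression and signalling were also among the calls. Epas1, the oxygen-sensitive factor HIF-2 alpha, changed by 0.31 ± 0.07, Dtx1, a regulator of Notch, by 0.90 ± 0.14, Cbx5, the heterochromatin protein HP1 alpha, by 0.80 ± 0.12 and the kinase Akt2 by -0.40 ± 0.09. Cd83, a surface protein of activated immune cells, read 117 to 179 (median 152) in controls and 388, 518, 302 and 397 in KO males, a rise of 1.40 ± 0.24 (adjusted p = 0.00298). Galnt7, which starts mucin-type glycans, rose by 0.87 ± 0.10, and Fam20a, a pseudokinase of the secretory pathway, by 1.33 ± 0.17. Lefty1, an antagonist of NODAL, fell by 1.003 ± 0.17, at 286 to 471 (median 439) in controls and 223, 210.5, 149 and 238 in KO males (adjusted p = 0.00299). Epas1 (without C2 or K3, 0.0927) and Akt2 (without C2, C3, C4, K1, K2 or K4, 0.118) lost the call with 1 library left out. Epas1 was not called in males alone, and Epas1 and Akt2 without the oldest controls (adjusted p from 0.0602 to 0.0867).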
